A study of Mus musculus with 12 samples.

Results

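The 7 genes described here encode cystatins, inhibitors of papain-like cysteine proteases, and were taken by name from the 55401 genes of the file. Of these, 4 are stefin A paralogs (Stfa1, Stfa2, Stfa2l1 and Stfa3), and the other 3 are Cstb (cystatin B, also called stefin B), Cst3 (cystatin C) and Cst7 (cystatin F). They were selected on the difference between hosts measured in these same libraries, in which the stefin A genes had stood out in one host, so their host differences are given as a description without a test. The cells were MLL-AF9 leukemia cells, mouse bone marrow progenitors that carry the fusion oncogene MLL-AF9 together with GFP and that had been passed serially through many mice. They were transplanted into 3 kinds of female mice aged 8 to 12 weeks, and GFP+ cells were sorted from the bone marrow of moribund animals, with 4 libraries from each host. WT hosts were C57BL/6J mice with a normal immune system. Rag2-/- hosts, on the C57BL/6J background, lack mature T and B cells. NSG hosts are of another strain and are without T, B and also NK cells, so strain and loss of lymphocytes cannot be told apart in comparisons with NSG. The Rag2 deletion belonged to the host and not to the leukemia cells, which came from the same serially passed MLL-AF9 stock in all groups.

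Cystatins block cathepsins such as B, H, L and S by occupying their active site. Stefins A and B lack a signal peptide and act inside the cell, mainly in the cytosol and nucleus, whereas cystatin C is secreted by most cell types and cystatin F is made by immune cells, where it reaches the lysosome and restrains cathepsin C. In the mouse the stefin A gene has been copied several times, and the copies lie side by side on chromosome 16. Stefin A transcripts are known as abundant products of maturing neutrophils and their precursors in the bone marrow.

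The stefin A members lay on both strands of chromosome 16 (GRCm38), from the start of Stfa2l1 at 36156811 to the end of Stfa3 at 36455392, a span that holds 29 annotated genes. Stfa1 (ENSMUSG00000071562) lay at 36276951 to 36285373 on the plus strand and Stfa2 (ENSMUSG00000022902) at 36403992 to 36408457 on the minus strand. The other 3 members lay elsewhere, Cstb on chromosome 10 (78425669 to 78427622) and Cst3 and Cst7 on chromosome 2 (148871722 to 148875692 and 150570415 to 150578944). RefSeq windows of 250 bases before to 50 bases after the gene start (build GRCm38.p6) were at hand for 6 of the 7 members, all but Cstb. In pairwise global alignments, the windows of Stfa2 and Stfa2l1 were identical at 92.9% of aligned bases, and the other stefin A pairs at 80.7% to 82.8%. A stefin A window aligned to that of Cst3 or Cst7 with 45.4% to 57.9% identity. The sequences before the RefSeq starts are shown 5′ to 3′ on the gene's own strand because the stefin A windows resemble each other more than they resemble those of Cst3 and Cst7. They cover 150 bases for Stfa2l1 and Stfa3, and 30 bases for Stfa1 and Stfa2, whose longer GENCODE transcripts start further upstream and hold this stretch in their 5′ UTR. Capitals mark ACCTTTAAAACCC, a run of 13 bases common to all 4. Another run of the same length, ACTCAGCATTTCC, lies further from the start and was found in 0.0304% of all windows.
Stfa1, chr16:36277107-36277136, plus strand: tttcggatACCTTTAAAACCCtgagtctca
Stfa2, chr16:36408374-36408403, minus strand: ttacagaaACCTTTAAAACCCtgagtctct
Stfa2l1, chr16:36156661-36156810, plus strand: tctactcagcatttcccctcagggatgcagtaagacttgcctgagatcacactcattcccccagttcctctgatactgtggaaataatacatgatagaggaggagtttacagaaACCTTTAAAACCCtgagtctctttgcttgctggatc
Stfa3, chr16:36455393-36455542, minus strand: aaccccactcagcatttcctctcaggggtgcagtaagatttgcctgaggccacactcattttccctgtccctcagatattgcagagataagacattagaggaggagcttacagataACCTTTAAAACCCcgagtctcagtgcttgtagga

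The run in capitals starts 33 bases before the RefSeq start of Stfa1, 32 before Stfa2, 36 before Stfa2l1 and 34 before Stfa3. On either strand, it occurred in 9 of 32851 RefSeq promoter windows (0.0274%), all of them in the stefin A cluster. Besides the 4 members these were Cstdc4 (named Gm5483 in the file), Csta3 (Gm5416), Cstdc5 (which overlaps BC100530), Cstdc3 and Gm7260. The TATA box letters TATAAA were found in no window of the 6 members and in 13.6% of all windows, and the letters TTTAAAA, which lie inside the shared run, in the 4 stefin A windows and in 8.74% of all. A loose C/EBP motif, TTNNGNAA, had 1 match each in Stfa1, Stfa2 and Stfa2l1, 2 in Cst7 and none in Stfa3 or Cst3, against 40.7% of all windows. The letters GAGGAA, the core of many ETS sites, matched in the 4 stefin A windows and in Cst3 but not in Cst7, against 28.3% of all. Both strands were searched, and a match says only that the letters are there.

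The paralogs are alike enough to share reads. Of the 50-base windows of their GENCODE transcripts, 22.5% in Stfa1, 15.9% in Stfa2 and 24.6% in Stfa2l1 were found in another gene, against 0 in Stfa3, Cstb, Cst3 and Cst7. Stfa1 shared windows with BC100530, BC117090 and Gm15845, and Stfa2l1 shared them with Stfa2 and Gm49652, so levels of single paralogs are uncertain where reads could be assigned either way. Sums over the paralogs are given beside them.

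Values were in TPM (transcripts per 1000000 transcripts, which scales for transcript length and library total). From the spacing of low values the libraries were estimated to hold 16000000 to 27100000 reads in WT, 17400000 to 42800000 in Rag2-/- and 19000000 to 33100000 in NSG, and 3 reads on a transcript of 1 kb were worth 0.249 to 0.647 TPM. Estimated reads were taken to be counts of single mates, which the sources used here do not state. If both mates of a pair were counted, fewer independent fragments stand behind them. Odd numbers made up 31.1% to 34.2% of the low whole estimates. Even numbers thus prevailed, as they do where both mates of many pairs are counted. No interval was computed for these estimates. Fold changes are differences in log2(TPM + 1), which understates the change of low genes. Tests of genes outside the 7 members are limma's, with p-values adjusted over 15026 genes.

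Stfa1 was the main stefin A transcript in every library. In WT hosts it was measured at 263, 102, 176 and 151 TPM in replicates 1 to 4, in Rag2-/- hosts at 621, 1053, 1079 and 441 TPM, and in NSG hosts at 280, 250, 328 and 293 TPM. Each Rag2-/- library was thus above each WT and NSG library, and 3 of the 4 NSG libraries were above the highest WT library. The mean was 798 ± 318 TPM (SD, n = 4) in Rag2-/- hosts, 4.61 times that in WT hosts (173 ± 67.5) and 2.77 times that in NSG hosts (288 ± 32.4). On the log2 scale the difference was 2.18 (SE 0.30) against WT and 1.38 (SE 0.30) against NSG, and NSG exceeded WT by 0.81 (SE 0.30).

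Stfa2l1 had the largest difference among the members. It was measured at 3.60, 2.84, 0 and 7.06 TPM in WT hosts, at 45.7, 91.8, 89.2 and 29.6 TPM in Rag2-/- hosts and at 14.6, 11.2, 11.4 and 9.34 TPM in NSG hosts. The 3 hosts did not overlap, with WT lowest and Rag2-/- highest. The differences in log2(TPM + 1) were 4.09 (SE 0.53) for Rag2-/- minus WT, 2.24 for Rag2-/- minus NSG and 1.85 for NSG minus WT. In WT replicate 3 the estimated count was 0 reads, which allows up to 0.916 TPM, and without that library the difference from WT was 3.49. Over the 4 libraries of a host the estimated reads were 27 in WT, 768 in Rag2-/- and 127 in NSG.

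Stfa3 was measured at 8.37, 4.81, 10.6 and 3.08 TPM in WT hosts, at 33.6, 62.5, 52.6 and 7.06 TPM in Rag2-/- hosts and at 5.24, 6.10, 3.43 and 13.2 TPM in NSG hosts. Rag2-/- replicate 4 fell within the WT and NSG ranges, while the other 3 were above them. The log2 difference was 2.13 (SE 0.59) from WT and 2.10 (SE 0.59) from NSG, and WT and NSG overlapped with a difference of 0.03.

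Stfa2 was the lowest of the paralogs, at 2.29, 3.37, 0 and 1.35 TPM in WT hosts, at 5.54, 24.0, 19.96 and 2.12 TPM in Rag2-/- hosts and at 3.06, 0.712, 0.750 and 0.874 TPM in NSG hosts. Here too Rag2-/- replicate 4 lay among the other hosts and the other 3 did not. Its differences in log2(TPM + 1) were 2.08 (SE 0.64) from WT and 2.22 (SE 0.64) from NSG. These values rest on few reads, an estimated 16 in WT, 156 in Rag2-/- and 16 in NSG over 4 libraries, and 3 libraries held fewer than 3 reads.

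Summed over the 4 paralogs, stefin A reached 277, 113, 187 and 162 TPM in WT hosts, 706, 1231, 1241 and 480 TPM in Rag2-/- hosts and 303, 268, 343 and 317 TPM in NSG hosts. The Rag2-/- sums were the highest 4, with replicates 2 and 3 above replicates 1 and 4. Stfa1 made up 85.5% to 91.9% of the sum in Rag2-/- hosts and 90.3% to 95.5% in the others. The share of Stfa2l1 was 6.17% to 7.46% in Rag2-/- hosts, above its 2.95% to 4.81% in NSG hosts and its 0 to 4.36% in WT hosts.

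**Figure D1:**
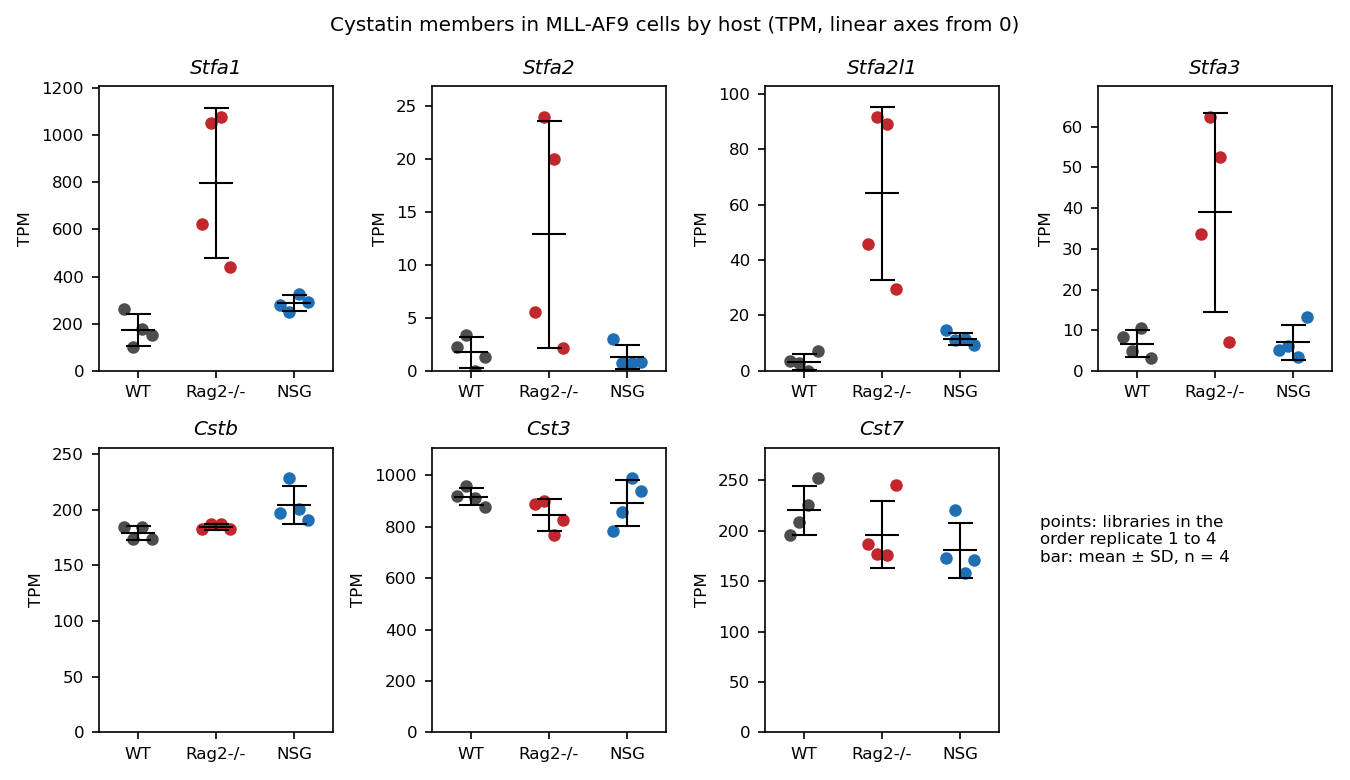
TPM of each cystatin (vertical axes, linear from 0) in the 4 libraries of each host, with bars for the mean ± SD. Stfa1 and Stfa2l1 in Rag2-/- hosts lie above both other hosts in each library, and Stfa2 and Stfa3 do so in 3 of 4 libraries. Cstb, Cst3 and Cst7 vary less, though each NSG library lies above both other hosts in Cstb.

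Cstb, the ubiquitous cytosolic stefin, was measured at 184, 174, 185 and 174 TPM in WT hosts, at 182, 187, 187 and 182 TPM in Rag2-/- hosts and at 197, 228, 201 and 190 TPM in NSG hosts. It thus differed little between WT and Rag2-/- hosts (log2 difference 0.05, SE 0.06), and its NSG libraries were above all others, by 0.19 over WT and by 0.14 over Rag2-/-.

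Cst3, the secreted inhibitor, was the most abundant of the 7 in WT hosts and in NSG hosts. Its values were 922, 958, 911 and 877 TPM in WT hosts, 890, 900, 767 and 827 TPM in Rag2-/- hosts and 786, 856, 990 and 940 TPM in NSG hosts. The hosts overlapped, with log2 differences of -0.12 (SE 0.08) for Rag2-/- minus WT, -0.08 for Rag2-/- minus NSG and -0.04 for NSG minus WT.

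Cst7, the lysosomal inhibitor of immune cells, was measured at 196, 208, 225 and 252 TPM in WT hosts, at 186, 177, 176 and 246 TPM in Rag2-/- hosts and at 173, 220, 158 and 171 TPM in NSG hosts. All 3 hosts overlapped, and the log2 differences were -0.17 (SE 0.13) for Rag2-/- minus WT, 0.12 for Rag2-/- minus NSG and -0.29 for NSG minus WT. Rag2-/- replicate 4, the lowest of its host in all 4 stefin A genes, was the highest in Cst7.

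The contrast between the paralogs and the other cystatins is plain in their spread. Over the 12 libraries the SD of log2(TPM + 1) was 1.04 to 1.92 in the stefin A genes and 0.106 to 0.219 in Cstb, Cst3 and Cst7. The median log2 difference between Rag2-/- and WT was 2.16 over the stefin A genes, -0.12 over the other 3 and 0.02 over all genes tested. Against NSG it was 2.16, -0.08 and 0.01 in the same order, a comparison that shares the Rag2-/- libraries with the first. Stefin A made up 7.79% to 17.6% of the summed TPM of the 7 cystatins in WT hosts, 17.0% to 20.8% in NSG hosts and 27.7% to 52.3% in Rag2-/- hosts. The summed TPM of Cstb, Cst3 and Cst7 stayed between 1130 and 1349 in all 12 libraries. Within that range, each Rag2-/- sum (1130 to 1263) was below each WT sum (1302 to 1339), while NSG sums overlapped both.

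**Figure D2:**
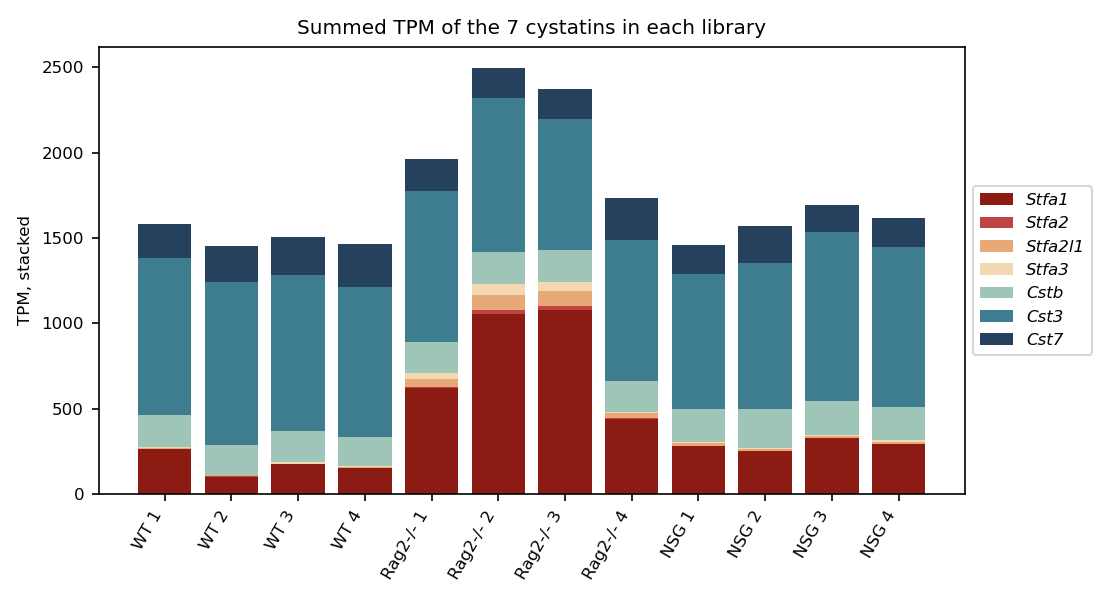
Stacked TPM (vertical axis, linear from 0) of the 7 cystatins in each of the 12 libraries. The total was 1734 to 2494 TPM in Rag2-/- hosts and 1453 to 1692 TPM in the others, and the part that varies most is Stfa1 in dark red.

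All 7 members had an average of 1 TPM or more over the 12 libraries, the filter for testing, and each would have passed in any host alone. A gene was called where its adjusted p fell under 0.05 and its log2 difference passed 0.5 in either direction. No call is given for the members, which were chosen by these contrasts. Between NSG and WT no gene of the 15026 was called in either direction (0% in limma, 1 gene in voom), although 1377 had an unadjusted p below 0.05. Without overlap between hosts, 2 members (Stfa1 and Stfa2l1) were higher in Rag2-/- than in WT (10.2% of all genes), both were also higher in Rag2-/- than in NSG (4.34%), Cstb was lower in Rag2-/- than in NSG (2.25%), and Stfa2l1 and Cstb were higher in NSG than in WT (2.21%).

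**Figure D3:**
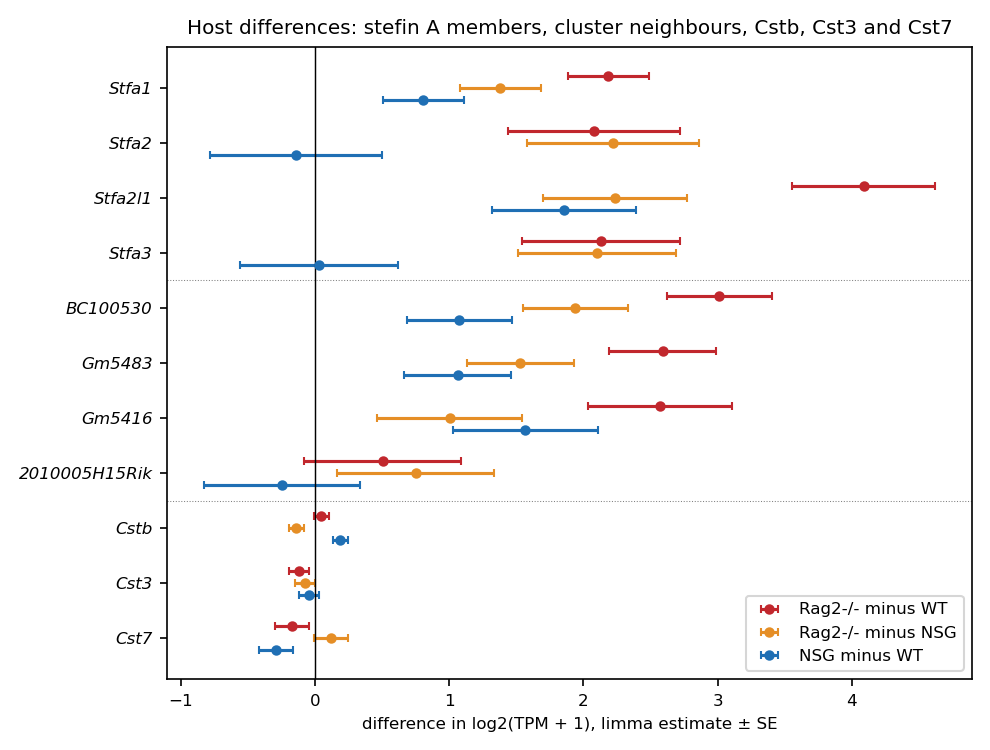
Differences in log2(TPM + 1) between hosts (horizontal axis, limma estimate ± SE) for the 4 stefin A members, 4 other genes of the cluster and the 3 other cystatins, with dotted lines between these sets. For Rag2-/- minus WT, the stefin A members lie between 2.08 and 4.09, and Cstb, Cst3 and Cst7 between -0.17 and 0.05.

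The cluster holds 25 other annotated genes between Stfa2l1 and Stfa3, and 5 of them reached a mean of 1 TPM. Of these 5, 3 rose in Rag2-/- compared with WT hosts, where 1.14% of all genes tested were called higher, all of them predicted stefin A-like genes. BC100530 went from 17.5, 6.02, 10.0 and 6.15 TPM in WT hosts to 66.3, 126, 126 and 39.2 TPM in Rag2-/- hosts, with 28.7, 18.03, 14.8 and 21.6 TPM in NSG hosts. Its hosts Rag2-/- and WT did not overlap, and the log2 difference was 3.01 (SE 0.39, limma adjusted p = 0.00525). BC100530 shared 36.2% of its 50-base windows with other genes, Stfa1 among them, so it is not independent of Stfa1, and it overlaps the antisense gene Gm15845, while the strand setting of the counting is not given in the sources used here.

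Gm5483 was measured at 19.1, 5.11, 5.84 and 6.24 TPM in WT hosts, at 49.0, 83.7, 69.9 and 25.7 TPM in Rag2-/- hosts and at 17.5, 20.3, 12.6 and 20.6 TPM in NSG hosts. It rose by 2.59 on the log2 scale against WT (SE 0.40, limma adjusted p = 0.00985). Of the 50-base windows of Gm5483, 14.2% were shared with other genes, 772 in number, so its level is uncertain too. Gm5416 rose by 2.57 (SE 0.54, limma adjusted p = 0.0304), from 0 to 5.13 TPM in WT hosts to 5.66 to 27.8 TPM in Rag2-/- hosts, on 11 estimated reads in WT against 122. Its call was lost when WT replicate 2, 3 or 4 or Rag2-/- replicate 2 or 3 was left out (adjusted p = 0.0663 to 0.110), with a pseudocount of 0.1, in voom and with the replicate number as a block (adjusted p = 0.0513 to 0.0597). None of these genes was called against NSG, a comparison in which 0.193% of all genes were called higher and in which BC100530 had a log2 difference of 1.94 (limma adjusted p = 0.0642) and was called without Rag2-/- replicate 4, as was Gm5483.

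The 2 other tested genes of the cluster did not pass. 2010005H15Rik, which RefSeq names Csta2 and whose promoter window lacks the run in capitals, was measured at 0.400 to 9.44 TPM in WT hosts, 2.34 to 8.85 TPM in Rag2-/- hosts and 1.05 to 6.08 TPM in NSG hosts (log2 difference from WT 0.50, SE 0.58, limma adjusted p = 0.665). 2010005H15Rik shared 20.4% of its 50-base windows with Gm5483, so it is not independent of Gm5483. Gm23306, a small nuclear RNA gene, had 2 estimated reads in WT, 13 in Rag2-/- and 1 in NSG (log2 difference 1.18, limma adjusted p = 0.355). Of the remaining 20 genes, 13 were listed at 0 in every library, among them Gm7260, whose window holds the run in capitals. The others were BC117090, Gm4758, Gm6815, Gm10913, Gm10813, Gm25465 and Gm15845, of which BC117090 was the highest, at up to 2.84 TPM.

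**Figure D4:**
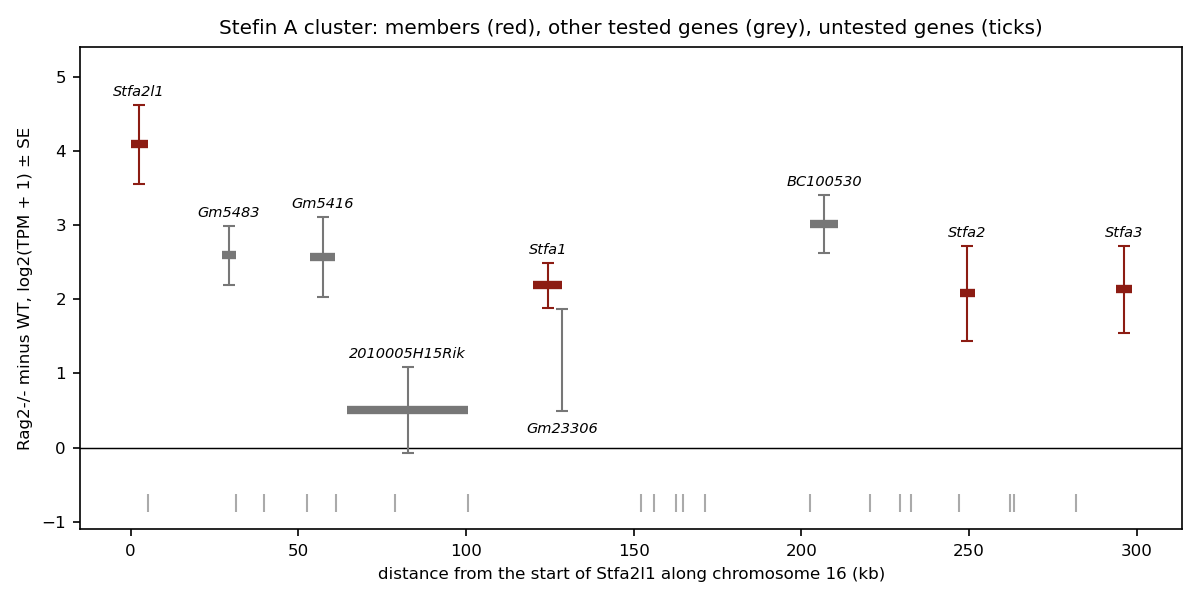
Tested genes of the stefin A cluster by distance from the start of Stfa2l1 (horizontal axis, kb), with the difference in log2(TPM + 1) between Rag2-/- and WT hosts ± SE (vertical axis). The horizontal bars span each gene, ticks mark genes that were not tested, and 2010005H15Rik at 0.50 lies between neighbours at 2.57 and 2.18.

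Among proteases that cystatins inhibit, 8 of 11 cathepsins and legumain were tested and none was called in any comparison over all 12 libraries. Their median log2 difference was 0.28 between Rag2-/- and WT hosts and 0.23 between Rag2-/- and NSG hosts, beside 0.02 and 0.01 over all genes. Ctsz (cathepsin Z) was the most abundant at a mean of 1014 TPM, with a log2 difference from WT of -0.12 (SE 0.07, limma adjusted p = 0.362). Ctsb (cathepsin B) averaged 179.8 TPM, with a difference of 0.20 (limma adjusted p = 0.0859). Ctss (cathepsin S) was measured at 60.9, 53.1, 64.4 and 62.3 TPM in WT hosts and at 72.5, 88.2, 94.0 and 80.6 TPM in Rag2-/- hosts, without overlap, and its difference of 0.47 (SE 0.09, limma adjusted p = 0.0230) was under the limit of 0.5 but passed it without Rag2-/- replicate 1 (0.54) or WT replicate 3 (0.50). Ctsl (cathepsin L) differed by 0.39 (limma adjusted p = 0.177). Lgmn (legumain, which cystatins C and F also inhibit) was low, at 0.577 to 0.852 TPM in NSG hosts and 1.35 to 4.23 TPM in Rag2-/- hosts, with a difference of 1.18 from NSG (limma adjusted p = 0.0642) that was called in voom and without Rag2-/- replicate 2. The summed TPM of the 11 proteases was 1312 to 1397 in WT, 1295 to 1403 in Rag2-/- and 1180 to 1464 in NSG libraries.

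Of 15 other cystatins and cystatin-like inhibitors, 11 were listed at 0 in every library and only Ctla2a was tested, at 1.37 to 3.95 TPM with a log2 difference from WT of -0.45 (limma adjusted p = 0.235). The median log2 difference between Rag2-/- and WT hosts was 0.31 over 10 tested inhibitors of other proteases. Of these 10, 1 was called higher (1.14% of all genes) and none lower. This was Wfdc21, a small whey acidic protein-type inhibitor, at 544 to 654 TPM in WT and 806 to 1479 TPM in Rag2-/- hosts (log2 difference 0.80, SE 0.14, limma adjusted p = 0.0170), a call lost without WT replicate 2 or Rag2-/- replicate 2 (adjusted p = 0.0688 and 0.0600). Wfdc17 of the same kind, at a mean of 4613 TPM, differed by 0.49 (limma adjusted p = 0.0507). Slpi, an inhibitor of neutrophil serine proteases, averaged 3058 TPM and differed by -0.29 (limma adjusted p = 0.304), and Serpina3f by 0.51 (limma adjusted p = 0.299). In none of these lists was a gene called against NSG.

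Genes outside the cluster were ranked by how closely they followed the stefin A genes, as the root mean square difference between log2(TPM + 1) profiles centred on their mean over the 12 libraries. The nearest were Fpr1 (0.451), Gm14548 (0.490), S100a8 (0.493), Mmp8 (0.508) and Mmp9 (0.518), and the members themselves lay 0.460 (Stfa1) to 0.83 (Stfa2l1) from their own mean. Fpr1 (a receptor for formylated peptides), S100a8 (a calcium-binding protein of neutrophil cytosol), Mmp8 and Mmp9 (granule metalloproteases) are neutrophil genes. Fpr1 was low, at a mean of 0.511 TPM in WT hosts, where it would not have passed the filter of 1 TPM. Its mean was 1.10 TPM in NSG hosts and 7.11 TPM in Rag2-/- hosts. Nearest to Cst3 were Rpl13 (0.033), Phb (0.038) and Dera (0.044), and nearest to Cst7 were Zeb1 (0.080), Hpse (0.116) and Gm26947 (0.121), all over the same 12 libraries and largely flat.

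Most markers of neutrophils moved with the stefin A genes. All 20 neutrophil markers were tested. In Rag2-/- compared with WT hosts 14 were called higher, beside 1.14% of all genes, and none lower, with a median log2 difference of 1.84. Compared with NSG hosts, 10 were called higher, beside 0.193% of all genes. The list was chosen with earlier results of these data known, so these counts are not an independent test. With 1 library left out, 9 (without WT replicate 2 or Rag2-/- replicate 2 or 3) to 15 (without Rag2-/- replicate 4) were called higher than in WT, and 4 (without NSG replicate 2 or Rag2-/- replicate 1, 2 or 3), 5 (without NSG replicate 1 or 4) or up to 15 (without Rag2-/- replicate 4) than in NSG. Of the 20 markers, 18 had a positive log2 difference from WT. Hdc, a marker named after its values were seen, went the other way, at 154 to 204 TPM in WT and 84.0 to 127 TPM in Rag2-/- hosts (log2 difference -0.81, limma adjusted p = 0.0655). It was called lower without NSG replicate 3 (adjusted p = 0.00908) and in voom (0.0199). Csf3r was also lower, but by little (log2 difference -0.10 to -0.014 with 1 library left out). Padi4 changed sign in the same fits (-0.083 to 0.11), and Ly6g, Chil3 and Il1r2 were not called over all 12 libraries. The summed TPM of the neutrophil markers was 1987 to 3780 in WT, 2309 to 3657 in NSG and 9152, 10231, 11472 and 2886 in Rag2-/- replicates 1 to 4. Rag2-/- replicate 4 was thus within the WT range for this sum, in which Chil3 weighs most, while its stefin A sum of 480 TPM was above every WT and NSG library. Its S100a8, at 107 TPM, was also above the 24.8 to 65.1 TPM of those libraries and below the 360 to 429 TPM of the other 3. No neutrophil marker was at 0 in every library. The part of neutrophils or of maturation within the leukemia in the stefin A difference was not tested, and in bulk RNA a larger share of such cells and more RNA per cell cannot be told apart. The sort on GFP was meant to leave out host cells.

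**Figure D5:**
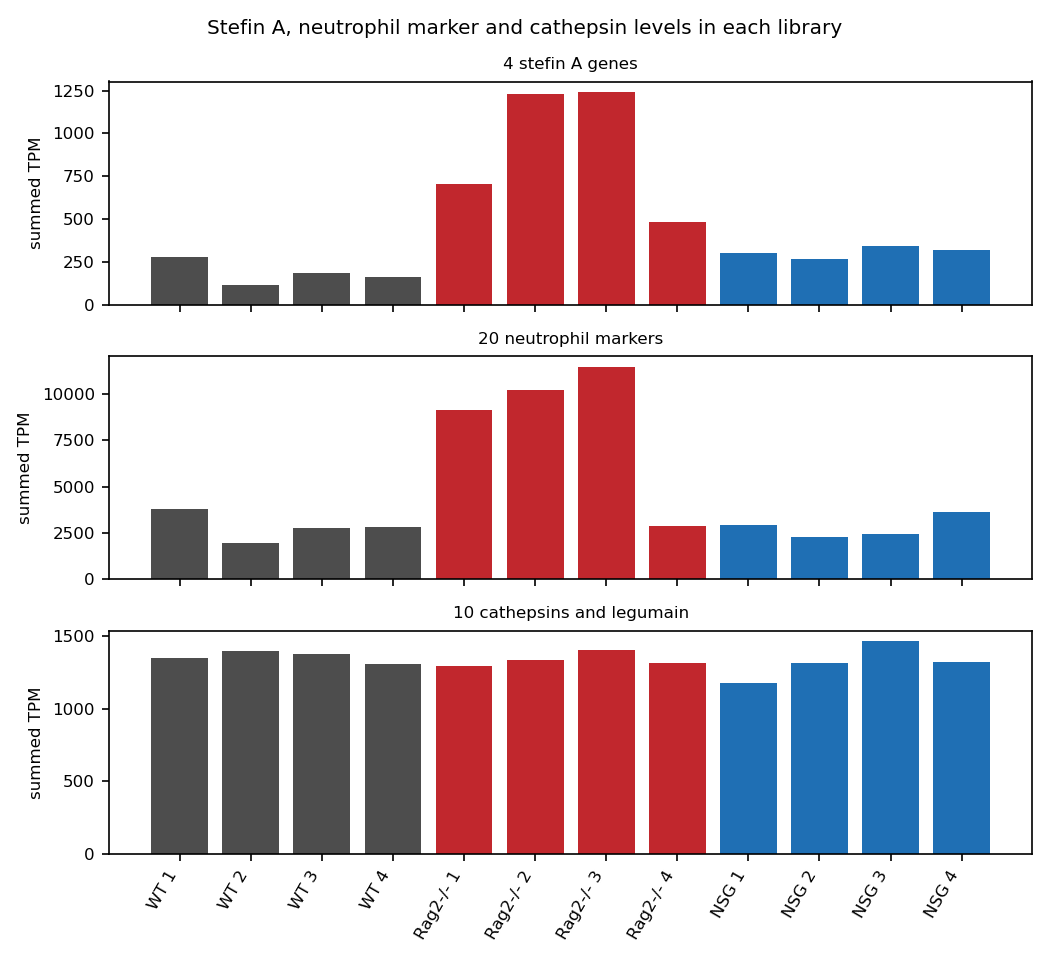
Summed TPM (vertical axes, linear from 0) of the 4 stefin A genes, 20 neutrophil markers, and 10 cathepsins with legumain in each library. The stefin A sum is 480 TPM in Rag2-/- replicate 4 and 706 to 1241 TPM in the other Rag2-/- libraries. The marker sum is 2886 TPM in Rag2-/- replicate 4, within the WT and NSG ranges, and 9152 to 11472 TPM in the other Rag2-/- libraries. The protease sum does not separate the hosts.

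Markers of other cells were followed in the same way. Of 11 tested macrophage markers, 2 were called higher in Rag2-/- than in WT hosts (C1qc and Hmox1), beside 1.14% of all genes. Compared with NSG hosts, 2 were called higher (Axl and Hmox1), beside 0.193% of all genes. The summed TPM of the macrophage markers was 226 to 248 in Rag2-/- libraries, 178 to 198 in WT and 150 to 193 in NSG, with no marker at 0 throughout. All 4 Rag2-/- sums were above those of every WT and NSG library. The macrophage calls depended on the libraries used, with 0 to 3 markers called in each of these comparisons once 1 library was left out. The calls of Axl and Hmox1 against NSG were then kept only without NSG replicate 3 or Rag2-/- replicate 4. Both were lost with a pseudocount of 0.1, quantile or median-ratio scaling and a replicate block, and that of Axl also with a factor for a split of the libraries, an alternative added after the data were seen. Against WT, the call of C1qc was lost when Rag2-/- replicate 1, 2 or 3 or WT replicate 1, 2 or 4 was omitted and with the added split, and that of Hmox1 when Rag2-/- replicate 1, 2 or 3 or WT replicate 2 or 4 was omitted, with median-ratio scaling and in voom. The 15 T and NK cell markers summed to 2.40 to 12.1 TPM, with Cd3e and Trac listed at 0 in every library. Of the 4 tested B cell markers, Igkc, an antibody light chain, was called lower in Rag2-/- hosts (0 to 0.295 TPM) than in WT hosts (0.745 to 18.03 TPM), with a log2 difference of -2.75 (limma adjusted p = 0.0348), where 0.326% of genes were called lower. That call was lost when any Rag2-/- library or WT replicate 1, 3 or 4 was left out (limma adjusted p = 0.0577 to 0.110), with a replicate block and with the added split. Igkc was also lower in NSG than in WT hosts (log2 difference -3.33 to -2.18 with 1 library left out). In those fits it was called only without WT replicate 2 (limma adjusted p = 0.0424), and Rag2-/- minus NSG was -0.19 to 0.09. In Rag2-/- hosts alone Igkc would not have passed the filter of 1 TPM. Ms4a1 was at 0 in every library. Erythroid markers summed to 3.47 to 4.55 TPM in WT, 4.99 to 11.0 TPM in Rag2-/- and 3.05 to 12.1 TPM in NSG libraries, so that each Rag2-/- sum was above each WT sum while NSG overlapped both. The 8 leukemia markers, Hoxa9, Hoxa10, Meis1, Kit, Ptprc, Itgam, Spi1 and Cebpa, were present in all 12 libraries, and none was called in any comparison. Kit, named after its values were seen, was called lower than in WT without Rag2-/- replicate 4 (log2 difference -0.55, limma adjusted p = 0.0145) and with the added split of the libraries (-0.55, limma adjusted p = 0.0398). The part of these other cells in the stefin A difference was not tested.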

How the data were processed

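RNA-seq libraries of GFP+ MLL-AF9 cells from 3 hosts, 4 each, were used. The authors aligned paired reads to mm10 with HISAT2 on Galaxy, counted them per gene and calculated TPM, the deposited unit; the counting tool, its handling of shared reads and its strand setting are not given in the sources used here. The symbols and exon lengths came from GENCODE M21 (55141 of 55401 genes matched). Reads were estimated from the spacing of TPM multiplied by exon length, and 98.6% to 98.9% of genes under 20 reads came out whole within 0.02. The fit was limma 3.58.1 in R 4.3.3 on log2(TPM + 1), with a trend, over all 12 libraries, for genes averaging 1 TPM or more, adjusted by the Benjamini-Hochberg method. Each library came from a separately numbered biological replicate. No pairing of the libraries by replicate number was seen (correlations of same-numbered deviations -0.0907 to 0.0318 over 12 pairs).

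The members and all gene lists were chosen with earlier results of these data known. Genes named besides the members are those of the cluster, called genes, the 3 most abundant and the 3 most different of each list, and those nearest in profile. Alternatives were a pseudocount of 0.1, other filters, quantile or median-ratio scaling, no trend, 8 libraries alone, a replicate block, no fold limit, voom on estimated reads, summed paralogs and each library left out. A split of the libraries was added after seeing the data. Windows and alignments used Biopython 1.88, the plots matplotlib 3.10.9, and tables Python 3.11.15 with pandas 2.3.3. The fit was tested on simulated data.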

Additional observations from a re-analysis of the deposited data

Results flagged for a closer look

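Within groups of 4 libraries, 39 groups of log2(TPM + 1) values were screened for a library whose gap to its nearest neighbour took up more of the range than Dixon's 95% critical value for 4 samples, which chance passes in about 1 of 20 groups (1.95 expected), and 4 passed. Stfa2 in NSG replicate 1 was the highest of its group with a gap of 0.895 of the range, at 3.06 TPM against 0.712 to 0.874 TPM, which rests on 8 estimated reads against 2 to 4. Gm5483 in WT replicate 1 was the highest of its group with a gap of 0.857, at 19.1 TPM against 5.11 to 6.24 TPM. Gm23306, a small nuclear RNA gene, was flagged in WT replicate 1 and in NSG replicate 3 with a gap of 1.0 in both, on 2 estimated reads and 1 estimated read against 0 in the other libraries.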

How the results depend on the processing

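The members' log2 differences kept their size within the spread between replicates in 395 values, and 4 moved, all of Stfa2l1, which reached 5.11 against WT with a pseudocount of 0.1 and 2.87 for NSG minus WT in voom. Most of the 395 could not have moved. Omitting 1 of 4 libraries shifts a member's mean by less than that spread. A library outside the comparison, a replicate block or 8 libraries alone leaves members and medians unchanged. The stefin A medians kept their size in 59 of 60 values, the exception being the summed TPM of the paralogs, which gave 1.46 against NSG. With 1 library left out, these medians ranged from 1.91 to 2.71 (Rag2-/- minus WT), 1.77 to 2.65 (Rag2-/- minus NSG) and 0.306 to 0.598 (NSG minus WT).

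Counts of called genes moved more. Between Rag2-/- and WT, 221 genes were called, against 114 with all genes above 0, 355 with 8 libraries alone and 420 without a fold limit, and 48 (without WT replicate 2) to 327 (without NSG replicate 3) with 1 library left out. Between Rag2-/- and NSG, 32 were called, against 14 with a pseudocount of 0.1, 7 with all genes above 0, 19 with quantile and 11 with median-ratio scaling, 18 without a trend, 6 with 8 libraries alone, 59 in voom and 15 with the added split, and leaving out 1 library gave from 4 (Rag2-/- replicate 3 omitted) up to 90 (Rag2-/- replicate 4 omitted). Between NSG and WT, 0 were called, against 2 with all genes above 0, 1 in voom and 0 to 2 with 1 library left out. The causes were not tested. With the replicate number as a block, 5 genes were called against NSG in place of 32. Over all genes tested, 0 of 12 libraries resembled their own number most, so no pairing was seen. A pairing that affects few genes could be missed this way.

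Few reads limit Stfa2, Stfa2l1 and Gm5416 in WT libraries, and reads shared between paralogs limit single levels.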
